A study of Cunninghamia lanceolata with 18 samples.

Results

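Lateral buds (LB) were compared with apical buds (AB) in clone C11 of Chinese fir (*Cunninghamia lanceolata*), the clone with the shorter internodes of the pair studied. The comparison was defined by the labels alone and rested on 6 of the 18 libraries of the series, 3 from LB and 3 from AB of C11. The other 12 libraries came from the upper phloem next to the apical bud (UP) of C11 and from LB, AB and UP of clone C1, which has longer internodes. No treatment was applied to either clone for these libraries, and by the study's methods the buds were taken when lateral buds appeared, on day 28 after apical bud sprouting in C11, although its text is not uniform on when lateral buds first appeared in each clone. The methods state that tissues were collected simultaneously from the individuals sampled for hormones. By the methods the C1 tissues were taken on another day, and then clone and day cannot be told apart. The methods call the replicates biological and do not say which library came from which individual, and each group is a model of 1 clone only. Whether a replicate number stands for 1 tree is not given in the sources used here.

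In many conifers and flowering plants the shoot tip holds back the buds beneath it, a relation called apical dominance. Auxin made in the tip and carried down the stem is the classical signal. Strigolactones, which are made from carotenoids, act against bud outgrowth, and cytokinins act for it. Brassinosteroids promote cell elongation. Very-long-chain fatty acids are built by the elongase complex of the endoplasmic reticulum and feed the cuticle, suberin, waxes and sphingolipids, which young bud surfaces make in quantity. Gene names below are those the study gave to Chinese fir genes from matches in other species, so each stated role is known from other plants. Identifiers with no name in the sources used here are given as identifiers.

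The 3 LB libraries held 28267195, 30134332 and 29089722 counts on genes, and the 3 AB libraries 28176887, 29313500 and 26826034, as whole numbers for 46723 genes. A total of 14048 genes had no count in any of the 6 libraries, and 24247 passed the filter on low counts (filterByExpr of edgeR) and were tested. Levels are given as CPM, counts scaled to a common library size (TMM, over the 18 libraries). CPM are not divided by gene length, so they are compared between libraries and not between genes.

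The libraries differed by replicate number far more than by bud type. In the layout of 2 bud types by 3 replicate numbers, the number held 64.4% of the variance of log2(CPM + 1), bud type 12.3% and the remainder 23.3%, averaged over the 24247 genes. Each gene had 1 degree of freedom for bud type, 2 for the number and 2 for the remainder, and shares in that ratio arise without any effect. Per degree of freedom the number still held more than bud type for 19668 genes, 81.1% of those tested. With 2 degrees of freedom against 1, the share without any effect is above an even split, and it was not computed. In C1 the same layout gave 20.6% for bud type, 41.9% for the number and 37.6% for the remainder, close to the ratio of the degrees of freedom. No test was made of the difference between the clones in these shares.

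On the first 2 principal components of the 6 libraries, same-numbered LB and AB libraries lay next to each other. PC1 held 41.7% of the variance and set number 3 apart, at 159.8 in LB and 91.3 in AB, against scores from -77.0 to -36.5 for the other 4 libraries. PC2 separated number 1 (100.8 in LB and 82.0 in AB) from number 2 (-73.2 in LB and -82.3 in AB). PC3, with 15.3%, ran across both bud types. LB 1, LB 3 and AB 2 scored -75.6, -24.2 and -51.3 on it, and LB 2, AB 1 and AB 3 scored 20.7, 82.9 and 47.5. None of the first 4 components had all 3 LB libraries on one side of all 3 AB libraries.

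**Figure D1:**
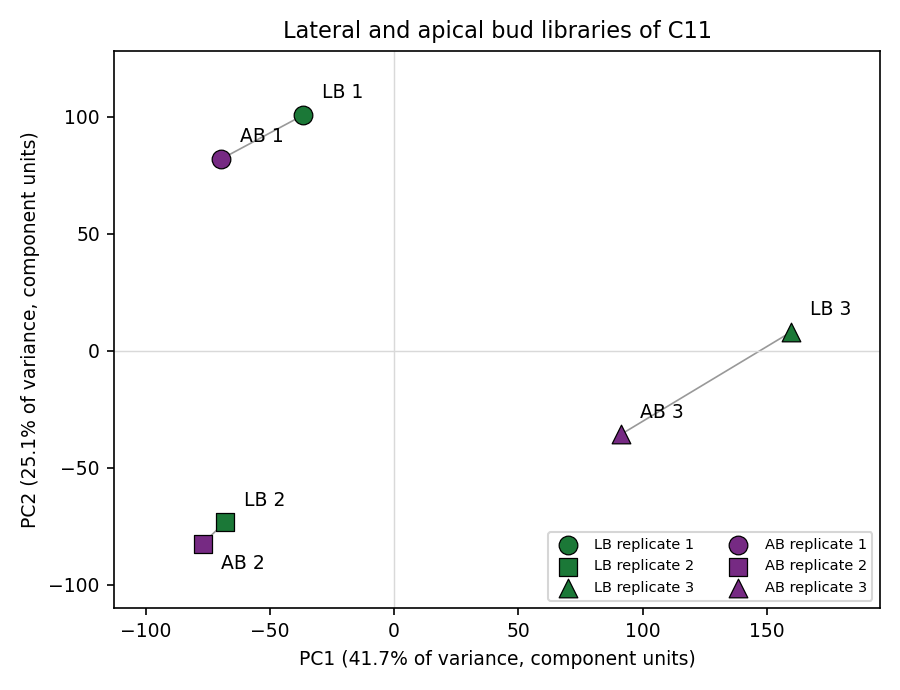
Scores of the 3 LB (green) and 3 AB (purple) libraries of C11 on the first 2 principal components of log2(CPM + 1), in component units, with genes centred and scaled. Grey lines join libraries with the same replicate number, and these lie together, with number 3 at 159.8 (LB) and 91.3 (AB) on PC1.

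Some genes were present or absent by replicate number in both bud types at once. Counts of 10 or more were set against 0. In C11, 160 genes had at least 10 counts in LB and AB of 1 number and 0 counts in the other 4 bud libraries. A further 93 had 0 counts in LB and AB of 1 number and at least 10 in each of the other 4. The 2 patterns together took in 253 genes in C11 and 22 in C1. Of the 160 genes, 92 had counts in number 1, 6 in number 2 and 62 in number 3. Of the 92 with counts in number 1, 38 also had at least 10 counts in UP 1 and 0 in UP 2 and UP 3. The same held for 1 of the 6 in number 2 and 17 of the 62 in number 3. The library with the highest level was the same number in LB and AB for 58.3% of genes in C11 and 35.7% in C1. The level for libraries with no tie by number is 1 in 3.

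No gene passed the thresholds of the study (at least 2-fold, with an FDR below 0.05 after Benjamini-Hochberg adjustment) in edgeR's quasi-likelihood test of LB against AB in C11. That is 0% of the genes tested, and the smallest FDR was 0.9999. At an unadjusted p under 0.05 there were 203 genes, 0.837% of those tested, of which 165 (0.68%) had higher and 38 (0.157%) had lower values in LB. The biological coefficient of variation, the typical spread between libraries of 1 group, was 0.644. DESeq2 without a block also called 0 genes, with 480 of 32209 (1.49%) at an unadjusted p under 0.05. Same-numbered libraries deviated together (correlations of 0.475 to 0.741), so the replicate number was also fitted as a block. With the block the coefficient of variation was 0.397, edgeR again called 0 genes with a smallest FDR of 0.915, and 1249 genes (5.15%) had an unadjusted p under 0.05. Of those, 874 (3.60%) had higher and 375 (1.55%) had lower values in LB.

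DESeq2 with the same block called 62 genes, 0.19% of 32675, with 31 higher and 31 lower in LB (0.0949% each). Of the 62, 58 differed in the same direction in all 3 same-numbered pairs, but in 8 alone did the LB and AB libraries not overlap. Their levels ranged widely between replicate numbers. The highest of the 6 libraries was a median of 23.2-fold above the lowest (0.5 CPM added), against 2.50-fold for all 24247 genes tested by edgeR. Among the 31 genes higher in LB, 23 had their highest LB and AB libraries both in number 3. Among the 31 lower in LB, 18 had both in number 1 and 9 both in number 2. None of the 62 was a hormone or lipid gene named by the study or a member of its network module described below. Leaving out number 1 gave 7 calls, none of them among the 62. Without number 2 there were 1062 calls, 45 of them among the 62, and without number 3 there were 249, with 17 among the 62.

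Of the 24247 genes, 701 (2.89%) had LB and AB libraries that did not overlap, 335 higher (1.38%) and 366 lower (1.51%) in LB. For 3 against 3 libraries with no tie by bud type or number, the share is 0.1, so the 701 are no excess. The genes with the smallest unadjusted p among the 701 are given next. Their separation was a condition of their choice, and narrow spread within each bud type goes with a small p. Cula0010982 had 56, 34 and 27 counts in LB and 2, 5 and 2 in AB, a log2 fold change of 3.69 ± 0.70 (SE, n = 3 each, FDR 0.9999 by edgeR's quasi-likelihood test). It had no counts in the C1 buds. Cula0021824 had 124, 105 and 85 counts in LB and 27, 19 and 29 in AB, a log2 fold change of 2.07 ± 0.45 (SE, n = 3 each). All 3 LB libraries of each gene lay above all 3 AB libraries, as their choice required.

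In the other direction, Cula0015292 had 20, 20 and 20 counts in LB and 64, 80 and 72 in AB, with a log2 fold change of -1.84 ± 0.41 (SE, n = 3 each). Cula0000890 had 236, 519 and 321 counts in LB and 798, 800 and 791 in AB, a log2 fold change of -1.19 ± 0.31 (SE, n = 3 each). The AB libraries of both genes were close to each other and, as their choice required, above every LB library. In C1 the log2 fold change of Cula0000890 was -1.85, with 20.9 ± 4.18 CPM in LB and 75.04 ± 13.8 CPM in AB (SD, n = 3 each).

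A single gene, NewGene_17587, had 0 counts in all 3 libraries of one bud type and at least 10 in each of the other. It had 46, 20 and 11 counts in LB and 0, 0 and 0 in AB, which makes it at least 25.2-fold higher in LB against a floor of 3 counts over the 3 AB libraries. It had 63, 0 and 0 counts in UP of C11. Its level in LB and UP was highest in number 1.

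A second set of genes was picked for 1 direction in all 3 same-numbered pairs and the smallest p in edgeR or DESeq2 with the block. Their levels changed many-fold between numbers, and the size of the ratio differed between pairs in some of them. NewGene_4323 had 1672, 128 and 5 counts in LB and 12195, 560 and 33 in AB, listed from number 1 to number 3. Each LB library lay below its AB partner, yet LB 1 lay above AB 2 and AB 3. Its log2 fold change was -2.78 ± 2.38 without the block and -2.55 ± 0.21 with it (SE, n = 3 each), and its FDR was 2.05e-09 in DESeq2 with the block and 0.915 in edgeR with the block. In C1 its log2 fold change was 2.69, with 18.01 ± 26.6 CPM in LB and 2.81 ± 2.78 CPM in AB (SD, n = 3 each).

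Cula0015110 showed the same order, with 401, 18 and 2 counts in LB and 3726, 183 and 6 in AB, and a log2 fold change with the block of -3.08 ± 0.34 (SE, n = 3 each). Its ratio of AB over LB was 9.08, 6.18 and 1.25 in pairs 1, 2 and 3 (0.5 CPM added). In the other direction, Cula0003166 had 210, 6 and 3395 counts in LB and 20, 2 and 537 in AB, with a log2 fold change of 2.84 ± 0.37 with the block (SE, n = 3 each). Its ratio of LB over AB was 6.775, 1.23 and 6.06, and pair 2 rested on 6 and 2 counts. Cula0003903 had 268, 70 and 1394 counts in LB and 87, 20 and 442 in AB, with 1.69 ± 0.19 with the block (SE, n = 3 each). Cula0036324 (193, 42 and 1842 counts in LB and 69, 12 and 452 in AB) and Cula0021780 (112, 3 and 1208 in LB and 14, 0 and 216 in AB) were likewise highest in number 3. NewGene_3413, with 427, 1234 and 172 counts in LB and 1169, 2983 and 514 in AB, was highest in number 2 and lower in LB in each pair, by -1.44 ± 0.15 on the log2 scale with the block. That every pair of these genes pointed one way was the condition of their choice, which 25.9% of all genes tested met. The LB and AB ranges overlapped in each of them.

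**Figure D2:**
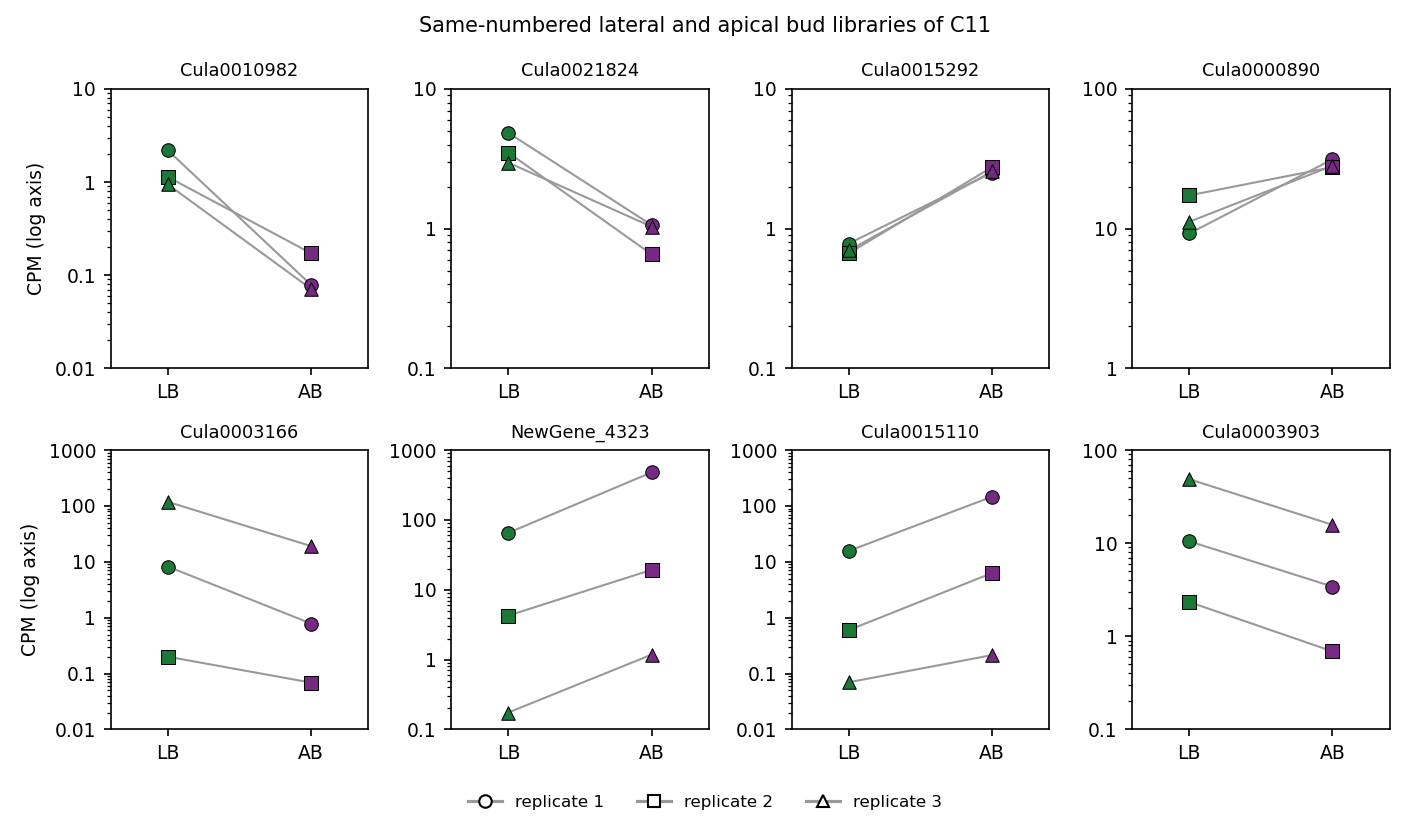
Levels in CPM (log axis) of 8 genes in LB (left, green) and AB (right, purple) of C11, with lines joining libraries of the same replicate number. In the top row the LB and AB libraries do not overlap, by the choice of these genes, as for Cula0000890 with 236 to 519 counts in LB and 791 to 800 in AB. In the bottom row the lines of a gene slope one way, by the choice of these genes. The LB and AB ranges overlap there, as for NewGene_4323 with 5 to 1672 counts in LB and 33 to 12195 in AB.

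The study named 55 genes of hormone, cell wall and lipid metabolism with an identifier, and 51 of them could be tested in the C11 buds. None was called by edgeR, with or without the block, and the smallest unadjusted p without it was 0.147. The LB and AB libraries of each of the 51 overlapped. The 3 pairs had 1 direction in 6 of the 51, 5 of them higher and 1 lower in LB, against 12.2% higher and 13.7% lower over all genes tested. Cula0017116, whose name in the study is ambiguous, was left out of these genes. It had 1.33, 1.67 and 1.36 CPM in LB and 0.59, 0.21 and 1.28 CPM in AB, without overlap, and a log2 fold change of 1.09 ± 0.71 (SE, n = 3 each, FDR 0.9999 by edgeR). The other 4 genes had 0 counts in all 6 libraries. They were 2 homologs of DAO, an enzyme that oxidises auxin (NewGene_11922 is one), UGT85A1 (Cula0012956), a glucosyltransferase of cytokinins, and BAS1 (Cula0015277), which inactivates brassinosteroids. In C1 buds NewGene_11922 averaged 1.85 ± 0.63 CPM in LB and 0.72 ± 0.68 CPM in AB, and UGT85A1 averaged 2.09 ± 1.28 CPM in LB and 2.66 ± 1.63 CPM in AB (SD, n = 3 each).

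The strigolactone genes held the widest difference among the named genes. D27 (Cula0004245), the carotene isomerase that starts strigolactone synthesis, had 773, 65 and 1810 counts in LB and 89, 43 and 470 in AB. It was higher in LB in each same-numbered pair, by 7.69-fold, 1.35-fold and 3.69-fold (0.5 CPM added), but AB 3 lay above LB 2. Its log2 fold change was 2.17 ± 1.32 without the block and 1.93 ± 0.58 with it (SE, n = 3 each, FDR 0.915 with the block by edgeR's quasi-likelihood test), and the 95% interval with the block was 0.35 to 3.50. D27 was the one named gene at an unadjusted p under 0.05 in edgeR with the block. In DESeq2 with the block, CCD (p 0.02365) and the homolog of At4g22110 (p 0.03639) were under 0.05 as well.

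CCD (Cula0015579), a carotenoid cleavage dioxygenase, followed D27 across libraries, with 1628, 58 and 4159 counts in LB and 128, 89 and 1244 in AB. Pairs 1 and 3 were higher in LB by 11.6-fold and 3.25-fold, and pair 2 was the other way. The log2 fold change was 2.04 ± 1.55 without and 1.67 ± 0.98 with the block (SE, n = 3 each). In UP of C11, CCD had 1108, 625 and 1562 counts and D27 486, 431 and 451, and the UP values of D27 lay closer together than those of either bud type.

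The other 4 strigolactone genes gave log2 fold changes from -0.02 to 0.36. CCD4 (Cula0029135), another carotenoid cleavage dioxygenase, had 414, 254 and 937 counts in LB and 564, 185 and 700 in AB. DAD2 (Cula0022349), the strigolactone receptor of petunia, had 1121, 901 and 875 counts in LB and 1311, 979 and 634 in AB, with a log2 fold change of -0.02 and a 95% interval of -0.90 to 0.87. The PDR1 homologs, named for a strigolactone exporter of petunia, differed in their spread. Cula0032575 stayed between 156 and 441 counts in the 6 libraries. Cula0033669 had 3195, 188 and 191 counts in LB and 2029, 855 and 124 in AB, a 28.3-fold range in CPM, and pair 2 pointed against pairs 1 and 3.

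**Figure D3:**
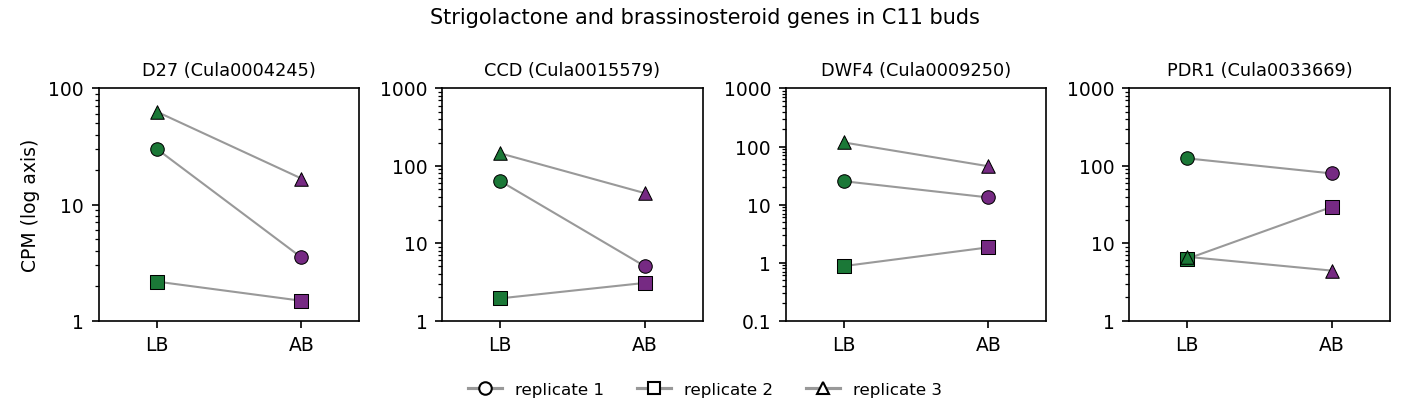
Levels in CPM (log axis) of D27, CCD, DWF4 and the PDR1 homolog Cula0033669 in LB (left, green) and AB (right, purple) of C11, with lines joining libraries of the same replicate number. D27 is higher in LB in all 3 pairs, by 1.35-fold to 7.69-fold, and the other 3 genes are higher in LB in pairs 1 and 3 and lower in pair 2.

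Of the 10 brassinosteroid genes tested, 8 had positive and 2 negative log2 fold changes, with a median of 0.39 (range -0.25 to 1.28) against 0 over all genes tested, and none passed the test. The median log2 of LB over AB was 0.85 in pair 1 but 0.02 and 0.07 in pairs 2 and 3. In pairs 1 to 3, 8, 5 and 6 of the 10 were higher in LB. In C1 the median log2 fold change of these genes was -0.04. DWF4 (Cula0009250), a hydroxylase of brassinosteroid synthesis, had 646, 26 and 3369 counts in LB and 337, 53 and 1282 in AB. It was higher in LB in pairs 1 and 3 and lower in pair 2, and its highest library was 136-fold above its lowest. The log2 fold change was 1.28 ± 1.62 (SE, n = 3 each). The receptor-like kinase homolog LRK10 (Cula0016476) had 708, 282 and 753 counts in LB and 586, 156 and 593 in AB, higher in LB in all 3 pairs, with a log2 fold change of 0.48 ± 0.20 with the block (SE, n = 3 each).

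Among the BAS1 homologs, Cula0030167 had 354, 247 and 615 counts in LB and 232, 226 and 588 in AB, and Cula0034399 had 20, 8 and 13 in LB and 5, 6 and 11 in AB. Both were higher in LB in all 3 pairs, with log2 fold changes of 0.23 ± 0.54 and 0.93 ± 0.67 (SE, n = 3 each). Cula0022875 had 132, 44 and 90 in LB and 37, 148 and 28 in AB, with pair 2 against the other pairs. CYP720B2 (Cula0019011), a cytochrome P450, had 1494, 1668 and 105 counts in LB and 1549, 1655 and 228 in AB. In CPM it was the one named gene lower in LB in all 3 pairs, with LB over AB of 0.96, 0.976 and 0.483 (0.5 CPM added). Its log2 fold change was -0.08 ± 1.08 (SE, n = 3 each).

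The 6 auxin genes tested had log2 fold changes from -0.32 to 0.59. The homolog of At4g22110 (Cula0015730), by name an alcohol dehydrogenase, was higher in LB in all 3 pairs, with 729, 284 and 2238 counts in LB and 231, 191 and 1782 in AB, and gave 0.84 ± 0.34 with the block (SE, n = 3 each), with a 95% interval of -0.08 to 1.76. The DAO homolog Cula0007806 had 619, 291 and 636 counts in LB and 559, 292 and 575 in AB, a log2 fold change of 0.13 ± 0.48 (SE, n = 3 each). Its values differed by replicate number and hardly by bud type. PP2C (Cula0014378), a protein phosphatase, had 516, 1573 and 577 counts in LB and 891, 865 and 1135 in AB. The cytokinin gene PARC (Cula0008351) had 164, 100 and 287 counts in LB and 297, 64 and 335 in AB.

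The lipid genes varied together across libraries, and their LB and AB libraries overlapped. The study built a co-expression network on these 18 libraries and described a module, called pink, of 981 genes rich in lipid pathways, with 20 hub genes of highest degree. Since these were chosen on the same libraries, their common course here is no independent evidence. All 20 hub genes were higher in LB than in AB in pair 2 and all 20 were lower in LB in pair 3, and 3 were higher in pair 1. The medians of log2 LB over AB were -0.33, 1.67 and -1.01 in pairs 1, 2 and 3, against -0.06, 0.02 and -0.01 over all genes tested. A higher value in LB in pair 2 alone was seen in 17 of the 20 hub genes (85.0%) and in 19.4% of all genes tested. Their log2 fold changes without the block ran from -0.21 to 0.21 with a median of -0.01, the median with the block was 0.08, and 0 of the 20 passed any test.

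KCS1 (Cula0031243), a ketoacyl-CoA synthase that starts each round of elongation, had 1351, 2827 and 1783 counts in LB and 1509, 745 and 4004 in AB. LB 2 was the highest of the LB libraries and AB 2 the lowest of all 6. ECR (Cula0015187), the enoyl-CoA reductase that ends the round, had 5414, 11846 and 9016 counts in LB and 7468, 5496 and 14839 in AB. DCR (Cula0008822), an acyltransferase of cutin synthesis, had 10542, 22776 and 15927 counts in LB and 14449, 11209 and 27852 in AB. The log2 fold changes were -0.10 ± 0.61 for KCS1, -0.11 ± 0.45 for ECR and -0.15 ± 0.44 for DCR (SE, n = 3 each), and the 95% interval for DCR was -1.22 to 0.92.

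Of the 17 lipid genes named, 14 were higher in LB in pair 2 alone (82.35%, against 19.38% of all genes tested). The homologs TSC10A Cula0029930, CYP86B1 NewGene_10942 and ABCG39 (Cula0002596) were higher in LB in pair 1 as well, by 0.16, 0.16 and 0.02 on the log2 scale. The wax ester synthase homolog WSD1 (Cula0011966) had 830, 4762 and 1703 counts in LB and 1285, 1191 and 4379 in AB. CYP86B1 (NewGene_10946), which hydroxylates very-long-chain acids for suberin, had 951, 2800 and 883 counts in LB and 1530, 648 and 2389 in AB. The exporter of cuticular lipids ABCG11 (Cula0028169) had 2329, 5700 and 4442 counts in LB and 3496, 2007 and 7959 in AB. The sphingolipid reductase homolog TSC10A (Cula0027148) had 627, 1468 and 845 in LB and 935, 362 and 1659 in AB. Cula0011966, NewGene_10946, ABCG11 and Cula0027148 each had a pair 2 ratio of LB over AB opposite in direction to the ratios of pairs 1 and 3. FAR3 (Cula0035785), a fatty acyl reductase, had 816, 1709 and 1515 counts in LB and 951, 409 and 2021 in AB, with the highest log2 fold change of the 17 lipid genes, 0.22 ± 0.58 (SE, n = 3 each).

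**Figure D4:**
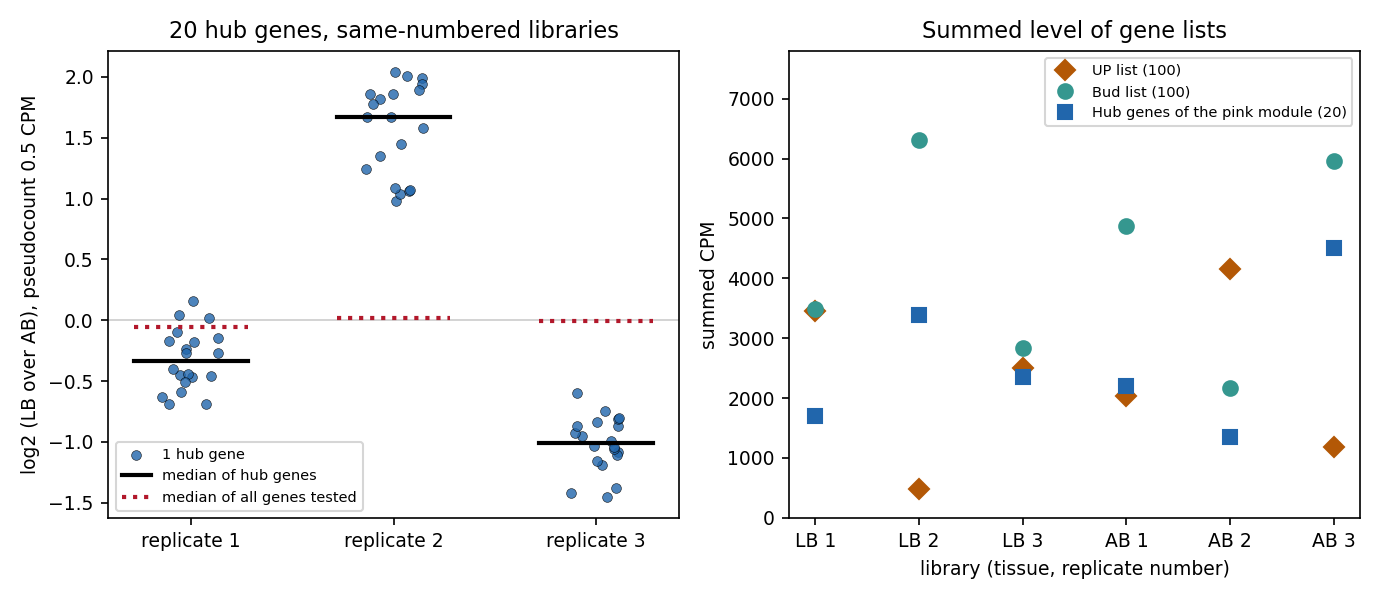
Left, log2 of LB over AB (0.5 CPM added) of the 20 hub genes in each same-numbered pair, with black lines for their median (-0.33, 1.67 and -1.01) and dotted lines for the median of all genes tested. Right, summed CPM of the UP list, the Bud list (100 genes each, chosen in C1) and the hub genes in each LB and AB library; LB 2 is lowest for the UP list (483) and highest for the Bud list (6312).

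Lists of phloem and bud genes, chosen in the C1 libraries alone, also varied between the C11 bud libraries. By its pair medians the list of bud genes had the directions of the hub genes (-0.34, 1.47 and -1.05 in pairs 1 to 3). The list of phloem genes had the opposite directions. The UP list holds 100 genes higher in UP than in the buds of C1, and the Bud list 100 genes higher in the buds. The UP list summed to 15817, 9660 and 31840 CPM in UP of C11, against 3447, 483 and 2499 CPM in LB and 2041, 4162 and 1175 CPM in AB. The mean of UP was thus 8.92-fold that of LB and 7.77-fold that of AB. The Bud list summed to 3486, 6312 and 2835 CPM in LB, 4870, 2165 and 5952 CPM in AB and 362, 638 and 126 CPM in UP. Bud and phloem libraries of C11 therefore did not overlap in either list. Of the 6 bud libraries, LB 2 was lowest in the UP list and highest in the Bud list, and AB 2 was highest in the UP list and lowest in the Bud list. LB 1 lay above LB 3 in both. With the 50 first genes of the UP list, LB 2 was again lowest (116 CPM), but AB 1 and not AB 2 was highest (1685 CPM), and UP 3 (745 CPM) lay below LB 1 (1092 CPM) and AB 1.

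The hub genes summed to 1708, 3380 and 2346 CPM in LB and 2205, 1345 and 4512 CPM in AB. AB 2 was lowest here and in the Bud list, and the highest libraries were LB 2 and AB 3 in both. Of the 20 hub genes, 12 are among the 100 genes of the Bud list, and none is in the UP list. Of the Bud list, 70 of 97 genes tested (72.2%) were higher in LB in pair 2 alone. The median log2 of LB over AB of the UP list was 0.68, -0.84 and 0.50 in pairs 1, 2 and 3. The part of phloem tissue in the bud samples in the lipid gene values was not tested. In whole tissue, fewer cells of a type and less RNA per cell cannot be told apart.

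The pathways listed within the pink module showed the same. They hold 228 genes in 23 lists, of which 220 were tested. None had an unadjusted p under 0.05 without the block and 1 had with it (0.455%, against 5.15% of all genes tested). That gene, Cula0030674, listed under pentose and glucuronate interconversions, had 301, 222 and 744 counts in LB and 145, 131 and 521 in AB, higher in LB in all 3 pairs, with a log2 fold change of 0.77 ± 0.23 with the block (SE, n = 3 each, FDR 0.915 by edgeR). A higher value in LB in pair 2 alone was seen in 135 of the 220 (61.4%). It was seen in 14 of 15 fatty acid elongation genes, 26 of 31 cutin, suberine and wax genes and 12 of 17 sphingolipid genes. In fatty acid elongation the medians of log2 LB over AB were -0.46, 1.35 and -0.92 in pairs 1 to 3, and the median log2 fold change was -0.10 (range -0.90 to 0.31).

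Hormone signalling genes in the module had the same pattern across pairs. Of the 24 under plant hormone signal transduction, 17 were higher in LB in pair 2 alone, 16 had negative log2 fold changes and 8 positive, and the median was -0.13. Carbon metabolism, with 26 genes tested, had 18 negative and 8 positive values and a median of -0.12, and 10 of the 26 were higher in LB in pair 2 alone. The 6 genes under brassinosteroid biosynthesis had a median of 0.45 and the 7 under phenylpropanoid biosynthesis 0.24, with 6 of the 7 positive. None of these genes passed the test.

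The 5 named genes of cell wall and phenylpropanoid metabolism gave log2 fold changes of -0.23 to 0.37, all with pair 2 higher in LB. DFR (Cula0029306), a dihydroflavonol reductase, had 1054, 1944 and 1059 counts in LB and 1426, 669 and 2566 in AB. ODO1 (Cula0001466), known in petunia as a MYB regulator of scent phenylpropanoids, had 257, 473 and 444 counts in LB and 251, 187 and 454 in AB, a log2 fold change of 0.37 ± 0.43 (SE, n = 3 each). XYN5 (Cula0013545), a xylanase homolog, had 96, 280 and 277 in LB and 102, 80 and 403 in AB. AB 2 was the lowest library for DFR, ODO1 and XYN5.

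The same contrast in C1, from other libraries, was set beside that of C11. In C1 edgeR called 0 of 23412 genes, with 1160 at an unadjusted p under 0.05 (4.95%, 476 higher and 684 lower in LB), and DESeq2 called 133. LB and AB libraries of C1 did not overlap for 2398 genes (10.2%), against 2.89% in C11. The share for libraries with no tie by bud type or number is 0.1, so the count in C1 is near that level. Across the 22032 genes tested in both clones, 54.2% had the same sign and Pearson's r of the log2 fold changes was 0.09 (Spearman's rho 0.11). This is a description over genes, which are not independent replicates. Spread between libraries lowers both values, so they do not measure how far the clones share a difference between bud types.

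The 100 genes per direction with the smallest p in C1, among those with no overlap there, were then read in the C11 libraries. Of the 92 genes of the C1 AB list tested in C11, 19 were lower and 5 higher in LB in all 3 pairs, against 13.7% lower and 12.2% higher over all genes. With the block, 11 of the 92 had an unadjusted p under 0.05 and lower values in LB, against 1.55% of all genes tested, and 1 had higher values, against 3.60%. The median log2 fold change with the block was -0.10, and 40 of the 92 values were positive. Of the 90 genes of the C1 LB list, 18 were higher and 9 lower in LB in all 3 pairs, and the median with the block was -0.05. An unadjusted p under 0.05 with the block was found for 10 of the 90 with higher values in LB (3.60% of all genes tested) and for 4 with lower values (1.55%).

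In the C1 AB list, 3 genes had an unadjusted p under 0.05 in C11 without the block, all lower in LB, against 0.157% of all genes tested. They were Cula0000890, given above, Cula0018516 and Cula0028229. Cula0018516 had 9992, 15203 and 11525 counts in LB and 19844, 18985 and 19104 in AB, with no overlap, and log2 fold changes of -0.68 ± 0.27 in C11 (SE, n = 3 each) and -0.78 in C1. Cula0028229 had 1847, 2298 and 1693 counts in LB and 3143, 2911 and 2571 in AB, with -0.58 ± 0.24 in C11 (SE, n = 3 each) and -0.57 in C1. In both clones the LB libraries of these genes lay below the AB libraries.

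Of the C1 LB list, Cula0026409 had 1138, 548 and 1997 counts in LB of C11 and 455, 345 and 825 in AB, a log2 fold change of 1.09 ± 0.23 with the block (SE, n = 3 each, FDR 0.915 by edgeR) and 0.86 in C1. Cula0032725 went the other way in C11. It had 908, 1674 and 271 counts in LB and 1754, 3648 and 642 in AB, with a log2 fold change of -1.11 with the block, called by DESeq2 with the block (FDR 0.0137) and not by edgeR, against 0.90 in C1. DESeq2 with the block called 2 of the 90 genes of the C1 LB list, both lower in LB, against 0.0949% called lower over all genes. The other was Cula0003154 (FDR 0.0306), with 494, 0 and 0 counts in LB and 2201, 35 and 4 in AB. Its log2 fold change was -3.06 in edgeR with the block, against 4.37 in C1. These genes and the 3 above were chosen for mention after their values were seen.

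**Figure D5:**
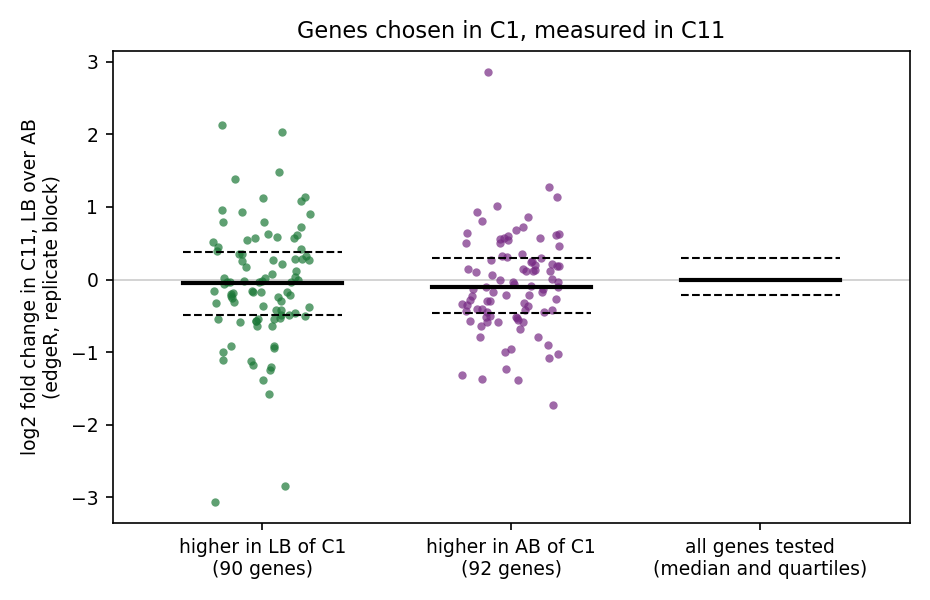
Log2 fold changes of LB over AB in C11 (edgeR with the replicate block) of genes chosen in C1 as higher in LB (90 genes, green) or higher in AB (92 genes, purple), with solid lines for medians and dashed lines for quartiles, and the same lines for all genes tested. The medians are -0.05 and -0.10, and both lists spread on either side of 0.

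No gene passed the thresholds in edgeR's test of the difference between the clones, (LB minus AB in C11) minus (LB minus AB in C1), over 26049 genes. The count was 0, with 417 (1.60%) at an unadjusted p under 0.05 and a smallest FDR of 0.379, and DESeq2 called 3. The genes with the smallest p were nearly silent in C1. Cula0009960 had 463, 581 and 336 counts in LB of C11 and 231, 142 and 99 in AB, and 0 CPM in LB and 0.52 ± 0.30 CPM in AB of C1 (SD, n = 3 each). NewGene_8396 had 448, 517 and 455 counts in LB of C11 and 189, 204 and 331 in AB, and 0 CPM in LB and 0.0946 ± 0.0238 CPM in AB of C1 (SD, n = 3 each). The LB and AB libraries of both genes did not overlap in C11, and both had an FDR of 0.379 in edgeR's test of the difference. On the other side, Cula0015494 had 99, 147 and 112 counts in LB of C11 and 108, 169 and 98 in AB, with overlap, and 0.26 ± 0.06 CPM in LB and 0 CPM in AB of C1 (SD, n = 3 each). NewGene_7833 had 4, 7 and 8 counts in LB of C11 and 25, 21 and 14 in AB, all LB libraries lower, and 0.12 ± 0.06 CPM in LB and 0 CPM in AB of C1 (SD, n = 3 each). For D27 the difference between the clones without the block was 0.80 on the log2 scale, with a 95% interval of -2.72 to 4.31. With the block it was 0.73, with a 95% interval of -1.07 to 2.52. The log2 fold change of D27 in C1 without the block was 1.35. D27 averaged 4.09 ± 3.46 CPM in LB and 1.59 ± 0.80 CPM in AB of C1 (SD, n = 3 each).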

How the data were processed

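RNA from apical buds, upper phloem and lateral buds of clones C1 and C11 was sequenced by the authors as 150 bp paired-end reads, aligned with Hisat2 v2.0.4, and deposited as whole-number counts per gene without normalization. No source used here states the counting program, or how strand and reads matching near-identical genes were handled, so values of members of gene families are uncertain.

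Counts were tested with edgeR 4.0.16 in R 4.3.3 by its quasi-likelihood test, with TMM scaling, filterByExpr and p-values adjusted by Benjamini-Hochberg over all genes tested, on the 6 libraries of LB and AB of C11, without a block, after the study's pairwise design. The study calls the replicates biological but does not tie a library to a tree. A call needed at least a 2-fold change with an FDR below 0.05. Values after ± are standard errors of the fit or SDs, as stated, and 95% intervals use the fit's degrees of freedom. Pair ratios add 0.5 CPM. Libraries were grouped as labelled. Their totals limit precision for genes of few counts, and intervals cover the spread between libraries only.

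Same-numbered libraries of C11 correlated in their deviations from the group means at 0.626, 0.475 and 0.741 for numbers 1, 2 and 3, all over the minimum of 0.1, and each LB library correlated best with the AB library of its own number. In C1 the values were 0.251, -0.134 and -0.282, so same-numbered libraries did not all deviate together there. These values do not show whether the C1 numbers pair the samples by tree. No 2 libraries of C11 buds were duplicates (highest correlation of log2 counts 0.948).

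Named genes were those the study names with an identifier or lists as hub genes, except Cula0017116, whose name is ambiguous, and, per fit and direction, the 2 genes of smallest p that met the condition on overlap or pairs given with them. Of the named genes, those given with values in the text were chosen from all those computed. The UP and Bud lists are the 100 genes with the smallest p among those at least 4-fold different at an FDR under 0.05 in C1. The members and lists were chosen with earlier results of these data known. Some genes that the rule covers are not reported here.

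Alternatives were DESeq2 1.42.0, RLE size factors, other filters, all 18 libraries, glmTreat at a fold of 1.5, the block, other list sizes and pseudocounts, and each library or number left out. Scripts were tested on simulated data. Python 3.11.15, pandas 2.3.3, scipy 1.17.1 and matplotlib 3.10.9 were used for tables and figures. Gene sequences, positions and hormone levels were not analysed here.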

Additional observations from a re-analysis of the deposited data

How the results depend on the processing

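Of 21 alternatives for the C11 comparison, 17 called 0 genes, among them edgeR with the replicate block (0 called, 1249 at an unadjusted p under 0.05) and edgeR without each library in turn. DESeq2 with the block called 62, and without each replicate number in turn 7, 1062 and 249 (numbers 1, 2 and 3), a choice made after seeing the data. The cause of the difference between the tools was not tested. For C1, where same-numbered libraries did not all deviate together, DESeq2 called 133. DESeq2 with the block called 190 (97, 94 and 748 without numbers 1, 2 and 3, also chosen after seeing the data). The fit of all 18 libraries called 1, and the other alternatives 0. For the difference between the clones DESeq2 called 3, and all other alternatives run called 0, the block included. The mean of both clones, added after seeing the data, gave 0 with and without the block (1956 and 843 at an unadjusted p under 0.05).

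The summed UP list, LB over AB on the log2 scale, was -0.20. It reversed to 0.27 without LB replicate 2 and to 0.41 without AB replicate 2, and the range over all libraries left out was -0.72 to 0.41. The share of variance by replicate number stayed between 64.0% and 73.5%. Of the 51 named genes, 7 kept 1 sign in every alternative run for them (21, but 19 for BAS1 Cula0034399), and D27 (2.52), CCD and DWF4 (1.17) passed in 1, DESeq2 with the block and without number 2. The median log2 fold change of the hub genes ran from -0.63 to 0.70 over the alternatives. The 95% interval lay within a fold of 2 either way for 1 of the 51 without the block (DAD2) and for 5 with it (DAO Cula0007806, CCD4, DAD2, BAS1 Cula0030167 and PMEI3), so for the others a change of that size was not excluded by the interval.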

Other observations

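Genes with the same direction in all 6 same-numbered pairs of both clones numbered 750 higher and 601 lower in LB, 3.40% and 2.73% of the 22032 genes tested in both. None passed an FDR of 0.05 in edgeR's test of the mean of both clones with the block, where an unadjusted p under 0.05 was found for 1956. Among the 2 in each direction with the smallest p in that test, Cula0006072 had 3785, 9398 and 2040 counts in LB of C11 and 7056, 14953 and 3513 in AB. In C1 it averaged 228 ± 64.3 CPM in LB and 433 ± 106 CPM in AB (SD, n = 3 each). Its log2 fold changes were -0.79 in C11 with the block and -0.94 in C1. In the other direction Cula0035519 had 1516, 404 and 2715 counts in LB of C11 and 812, 314 and 1444 in AB. In C1 it averaged 27.1 ± 5.65 CPM in LB and 10.7 ± 4.001 CPM in AB (SD, n = 3 each), and its log2 fold changes were 0.73 in C11 with the block and 1.33 in C1. Cula0009762 had 2729, 1082 and 2951 counts in LB of C11 and 2211, 687 and 1741 in AB, with 0.57 in C11 with the block and 1.88 in C1. Cula0013048 had 2053, 1490 and 674 counts in LB of C11 and 2878, 2278 and 1059 in AB, with -0.59 in C11 with the block and -1.23 in C1. Each of the 4 genes was picked for its agreement between the clones, so the agreement itself is no finding.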
